A study of Homo sapiens with 6 samples.

Results

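Interferon-stimulated genes are the transcripts that cells switch on after sensing interferon, and 47 of them were followed here in prostate epithelial cells with and without a hairpin against an atypical protein kinase C. The list was taken by gene symbol and drawn up with earlier results of these data known. A probe set annotated with exactly 1 symbol was found for 45 of the 47, among 18404 genes tested. STAT2 and GBP1 were not analysed here. The tested samples were 3 shPKCi samples, in which a hairpin is directed at PKCλ/ι, the product of PRKCI, which takes part in epithelial polarity. They were set against 3 shNT samples carrying the control hairpin. Both lines derive from PrEC cells, which come from normal prostate epithelium, are immortalized and were grown in prostate epithelial growth medium. All were collected 48 hours after plating under basal conditions, and no agent is named for either line. The series calls the samples biological replicates. Whether each line was 1 clone, and how many hairpin sequences were used, was not given in the sources used here.

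Interferons bind receptors on the cell surface, whose JAK1 and TYK2 kinases phosphorylate STAT proteins. The factor ISGF3, which forms from them with IRF9, binds the interferon-stimulated response element in the promoters of antiviral genes. Factors activated mainly by interferon-gamma bind a second element, the gamma-activated sequence. Epithelial cells respond to type I, type II and type III interferons, and many of these genes also have a basal level without any added interferon.

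The response element was read as GAAA, any 2 bases and GAAA again, on either strand of a window from 250 bases before to 50 bases after the gene's start, in RefSeq's GRCh38.p14 promoter table. On the reverse strand the same element shows as a pair of TTTC. The table held a window for 38 of the 47 members, and 27 of these (71.1%) carried the letters, against 4.38% of all 27305 genes with a window. The members with no window were GBP2, IRF7, DHX58, USP18, OAS2, MX2, IFIT2, OASL and TRIM22. Stretches around the match nearest to the start are printed for genes that differed at least 1.5-fold and passed the test, because they show the same letters in genes that went opposite ways. Capitals mark matches within the stretch, and each stretch is read 5′ to 3′ on the gene's strand.
IFIT1, higher in shPKCi, chr10:89392495-89392554 (+): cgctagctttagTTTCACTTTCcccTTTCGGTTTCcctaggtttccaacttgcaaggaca
IFIT3, higher, chr10:89332453-89332512 (+): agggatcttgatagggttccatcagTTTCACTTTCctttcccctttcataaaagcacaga
IFIT5, higher, chr10:89414524-89414567 (+): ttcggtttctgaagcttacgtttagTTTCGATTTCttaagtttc
OAS3, higher, chr12:112938437-112938473 (+): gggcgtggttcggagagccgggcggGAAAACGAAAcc
DDX60, higher, chr4:168318771-168318830 (-): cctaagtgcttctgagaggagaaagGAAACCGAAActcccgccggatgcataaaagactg
MX1, higher, chr21:41431829-41431888 (+): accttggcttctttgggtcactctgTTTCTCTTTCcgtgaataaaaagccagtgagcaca
RSAD2, higher, chr2:6877607-6877666 (+): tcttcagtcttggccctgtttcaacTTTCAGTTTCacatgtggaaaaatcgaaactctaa
IFI44, higher, chr1:78649746-78649788 (+): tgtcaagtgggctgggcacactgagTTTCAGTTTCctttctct
IFITM1, lower in shPKCi, chr11:313975-314034 (+): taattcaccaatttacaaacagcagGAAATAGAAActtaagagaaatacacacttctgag
The letters occurred in 13 of 16 members that rose and have a window, in 1 of 2 that fell, and in 12 of 18 that did not pass the test. IFITM1 thus carried the element and fell, while HERC6 and SAMD9L rose with no match in their windows. MX1 has 3 windows, and the printed match lies in one of them.
IRF1, an interferon regulatory factor induced by interferon-gamma, had no response element but held the gamma-activated sequence, searched as TTC, any 3 bases and GAA, which reads the same on both strands.
IRF1, higher in shPKCi, chr5:132490864-132490922 (-): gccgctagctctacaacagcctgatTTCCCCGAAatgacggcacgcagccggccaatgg
The gamma-activated letters were present in 12 of 38 members with a window and in 9.38% of all genes with one. They occurred in 3 of 16 members that rose, in 1 of 2 that fell and in 8 of 18 that did not pass, so most members that rose lacked them, unlike IRF1. A match in letters is a description of the sequence and does not show that a factor binds there. The 2 motifs can share bases, and did so in 22 of the 35116 windows of the table.

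The transcript targeted by the hairpin was lower in each shPKCi array. PRKCI had log2 signals of 9.64, 9.66 and 9.56 in shPKCi, against 10.67, 10.48 and 10.85 in shNT, a log2 ratio of shPKCi over shNT (the log2 fold change) of -1.05 (SE 0.11, limma adjusted p = 0.000279). Basal epithelial markers had a mean log2 signal above the median of all genes in 9 of 10 measured genes. They also differed between the lines: KRT14, KRT15, ITGB4 and CDH3 fell (4 of 10, against 8.95% of all genes), EPCAM rose, and the median log2 fold change of the list was -0.28. Of the 5 measured luminal markers and the 10 measured leukocyte markers, 0 lay above that median, and some listed markers were not analysed here. The luminal marker ACP3 fell, as did COL1A1 and KDR among 10 fibroblast and endothelial markers. Among the leukocyte markers 1 gene, CD3D, rose, by 0.34 on the log2 scale, with group means of 4.23 in shPKCi and 3.88 in shNT. The part of these marker changes in the results below was not tested. The array of shNT replicate 2 stood apart, with correlations of 0.974 to 0.989 to the other arrays over all genes, so results are also given without it. Fewer cells that express a gene and less of its RNA per cell cannot be told apart in these bulk samples.

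Of the 45 measured members, 18 rose, 4 fell and 23 did not pass the test (limma, adjusted p under 0.05 over all genes). Across all genes 9.55% were called higher and 8.95% lower, against 40% and 8.89% of the members. The median log2 fold change of the members was 0.28, and that of all genes was -0.02. Every shPKCi array lay above every shNT array in 24 members, where this held for 18.0% of all genes. The reverse was seen in 4 members, against 17.8% of all genes. With a fold of at least 1.5 also asked for, 11 members were higher and 4 lower, against 4.11% and 4.28% of all genes. Without shNT replicate 2, where 10.5% of all genes were called higher and 10.6% lower, the same 4 members fell and 17 of the 18 still rose. Of the members that rose, 2 did so by at least 2-fold, and of the 4 that fell, 3 did, where 0.734% of all genes rose and 1.29% fell by as much. The largest differences of the list, in either direction, were those of GBP2 and TRIM22, which fell.

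**Figure D1:**
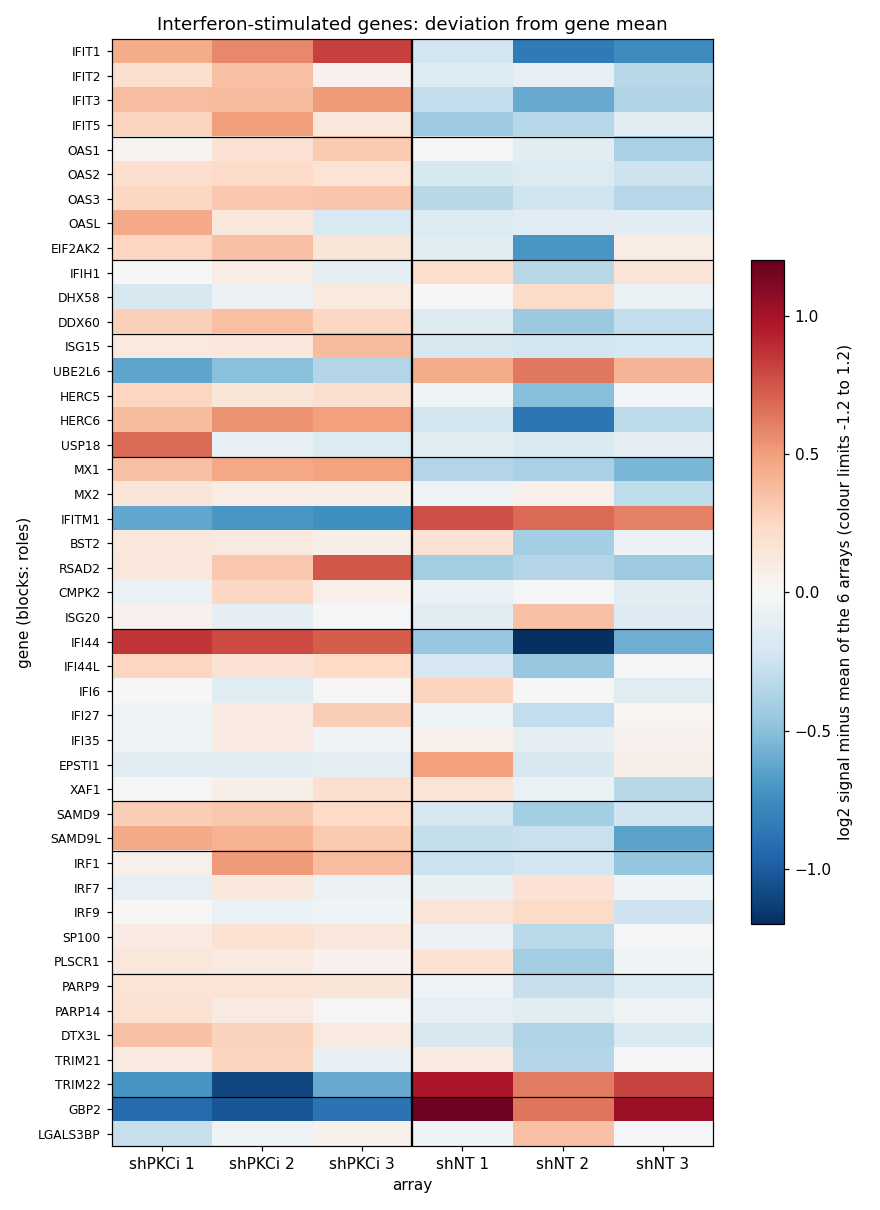
Log2 signal of the 45 measured members (vertical axis, blocks by role) in each of the 6 arrays (horizontal axis), as the difference from the gene's mean over the arrays; colours are limited to -1.2 to 1.2. Most genes are redder in the 3 shPKCi arrays, IFI44 in shNT 2 lies beyond the lower colour limit, and UBE2L6, IFITM1, TRIM22 and GBP2 run the other way.

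The members did not lie at one level across the shNT arrays. Their mean deviation from the average of the 6 arrays was 0.09, 0.12 and 0.11 in shPKCi replicates 1 to 3, against -0.01, -0.18 and -0.12 in shNT replicates 1 to 3. The array of shNT replicate 2 was the lowest of the 6 in 22 of the 45 members, and it was the lowest in 23.2% of all genes. The shPKCi arrays were close to each other, with a median SD of 0.09 over the members, against 0.16 in shNT. Over all genes these SDs were 0.10 and 0.14.

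The IFIT genes, which encode proteins that bind viral RNA and block its translation, all rose. IFIT1 had log2 signals of 7.40, 7.54 and 7.79 in shPKCi, against 6.73, 6.11 and 6.21 in shNT. The groups were well separated, and shNT replicate 1 was the highest of its group. IFIT1 was 2.34-fold higher in shPKCi (log2 fold change 1.23, SE 0.17, adjusted p = 0.00104). IFIT3, which stabilises IFIT1 in a complex, had 7.68, 7.70 and 7.83 in shPKCi, against 7.02, 6.71 and 6.96 in shNT, and was 1.79-fold higher (adjusted p = 0.000785). IFIT5 was 1.52-fold higher (adjusted p = 0.00908) and IFIT2 1.32-fold higher (adjusted p = 0.0371). No array of one line overlapped the other in any of the 4 genes. IFIT2 did not pass without shPKCi replicate 1 or 2 or shNT replicate 1 or 3 (adjusted p from 0.0805 to 0.162). The IFIT genes resemble each other in sequence, and their transcripts can bind each other's probes.

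The OAS enzymes make the short oligoadenylates that activate RNase L, and PKR, the product of EIF2AK2, halts translation when it binds double-stranded RNA. OAS3 had 7.07, 7.14 and 7.15 in shPKCi, against 6.48, 6.58 and 6.48 in shNT, which is a tight and complete separation. It was 1.52-fold higher (log2 fold change 0.61, SE 0.09, adjusted p = 0.00165), and OAS2 was 1.32-fold higher (adjusted p = 0.0132). OAS2 did not pass without shPKCi replicate 1 or 2 (adjusted p = 0.0533 and 0.0686). OAS1 had a log2 ratio of 0.35 (adjusted p = 0.0864), and EIF2AK2 of 0.50 (adjusted p = 0.0848). In both of these the lines did not overlap. The SD of the shNT arrays was 0.19 in OAS1 and 0.41 in EIF2AK2. EIF2AK2 had 9.94, 9.37 and 10.16 in shNT, with shNT replicate 2 far below the others. The log2 fold change of EIF2AK2 was 0.28 without that array (adjusted p = 0.103), and it passed without shNT replicate 3 (0.67, adjusted p = 0.032). OASL, a relative without enzymatic activity, had 6.02, 5.70 and 5.38 in shPKCi, against 5.40, 5.44 and 5.44 in shNT, and the lines overlapped.

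Among the 3 members that are helicase genes sensing or binding RNA, DDX60 rose and the others did not pass. The helicase gene RIGI is not a member and is given further below. DDX60 had 7.55, 7.63 and 7.51 in shPKCi, against 7.11, 6.82 and 6.97 in shNT, and was 1.51-fold higher (adjusted p = 0.00372). IFIH1, which encodes the double-stranded RNA sensor MDA5, had a log2 ratio of -0.02 (SE 0.15, adjusted p = 0.951). DHX58, encoding the related protein LGP2, had -0.10 (adjusted p = 0.676). IFIH1 carried 3 matches to the response element in its window, as many as IFIT5, HERC5 and IFI6 and the most of any member.

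The genes of the ISG15 pathway, in which a ubiquitin-like protein is joined to other proteins, moved in opposite directions. ISG15 itself had 6.92, 6.93 and 7.18 in shPKCi, against 6.61, 6.58 and 6.59 in shNT. The shNT arrays lay very close together, and ISG15 was 1.33-fold higher (log2 fold change 0.42, SE 0.10, adjusted p = 0.0201). Leaving out shPKCi replicate 2 or 3, or shNT replicate 1 or 3, ended the call of ISG15, with an adjusted p between 0.0518 and 0.0797. HERC6, a relative of the human ISG15 ligase HERC5, had 7.90, 8.06 and 8.01 in shPKCi, against 7.30, 6.65 and 7.20 in shNT. It was 1.92-fold higher (adjusted p = 0.00321), with a log2 ratio of 0.94, or of 0.74 without shNT replicate 2. UBE2L6, the conjugating enzyme that hands ISG15 to the ligase, had 7.82, 7.95 and 8.09 in shPKCi, against 8.89, 9.08 and 8.86 in shNT. UBE2L6 was thus lower in each shPKCi array, by 1.99-fold (log2 fold change -0.99, SE 0.11, adjusted p = 0.000338). HERC5 had a log2 ratio of 0.40 (adjusted p = 0.0742). USP18, the protease that removes ISG15 and also dampens the interferon receptor, had 6.24 in shPKCi replicate 1 and 5.47 and 5.40 in the others, against 5.43, 5.39 and 5.45 in shNT. The log2 fold change of USP18 was 0.28 (adjusted p = 0.403), and 1 shPKCi array stood above all others.

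Of the effectors that act directly on viruses, MX1 and RSAD2 rose and IFITM1 fell. MX1, a dynamin-like GTPase that traps viral nucleocapsids, had 7.49, 7.60 and 7.62 in shPKCi, against 6.79, 6.75 and 6.59 in shNT, and was 1.81-fold higher (adjusted p = 0.000404). RSAD2, which encodes viperin, had 4.61, 4.81 and 5.22 in shPKCi, against 4.07, 4.13 and 4.04 in shNT, and was 1.74-fold higher (adjusted p = 0.0046). In RSAD2 the shPKCi arrays were spread more widely than those of shNT. Its mean signal lay below the lower quartile of all genes. With no detection call used, its shNT signal cannot be told from background. IFITM1, a membrane protein that restricts viral entry, had 7.75, 7.68 and 7.64 in shPKCi, against 9.15, 9.06 and 8.98 in shNT. IFITM1 was 2.58-fold lower (log2 fold change -1.37, SE 0.10, adjusted p = 2.32e-05), with the smallest adjusted p of the list. MX2, BST2, which encodes the tetherin that holds virions at the membrane, the nucleotide kinase gene CMPK2 and the exonuclease gene ISG20 had log2 fold changes of 0.20, 0.21, 0.15 and -0.04. None of these 4 passed, with adjusted p between 0.274 and 0.897.

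IFI44 showed the largest rise of all members. It had 7.65, 7.57 and 7.52 in shPKCi, against 6.33, 5.48 and 6.20 in shNT, and was 2.98-fold higher (log2 fold change 1.57, SE 0.20, adjusted p = 0.000585). The shNT spread came from replicate 2, and the log2 fold change was 1.31 without it (adjusted p = 6.92e-05). IFI44L, its neighbour and relative, was 1.36-fold higher (adjusted p = 0.0289), but did not pass without any single shPKCi array or without shNT replicate 1 (adjusted p from 0.0697 to 0.101). The genes IFI6, IFI27, IFI35, EPSTI1 and XAF1, several of them in common use as markers of an interferon response, had log2 fold changes of -0.09, 0.22, 0.00, -0.25 and 0.16. None of the 5 passed, with adjusted p between 0.289 and 0.992, and the lines overlapped in each.

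SAMD9 and SAMD9L, neighbouring paralogs that restrict poxviruses and growth, both rose. SAMD9L had 5.96, 5.92 and 5.82 in shPKCi, against 5.22, 5.24 and 4.86 in shNT, and was 1.73-fold higher (adjusted p = 0.0018). SAMD9 was 1.48-fold higher (adjusted p = 0.0033).

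**Figure D2:**
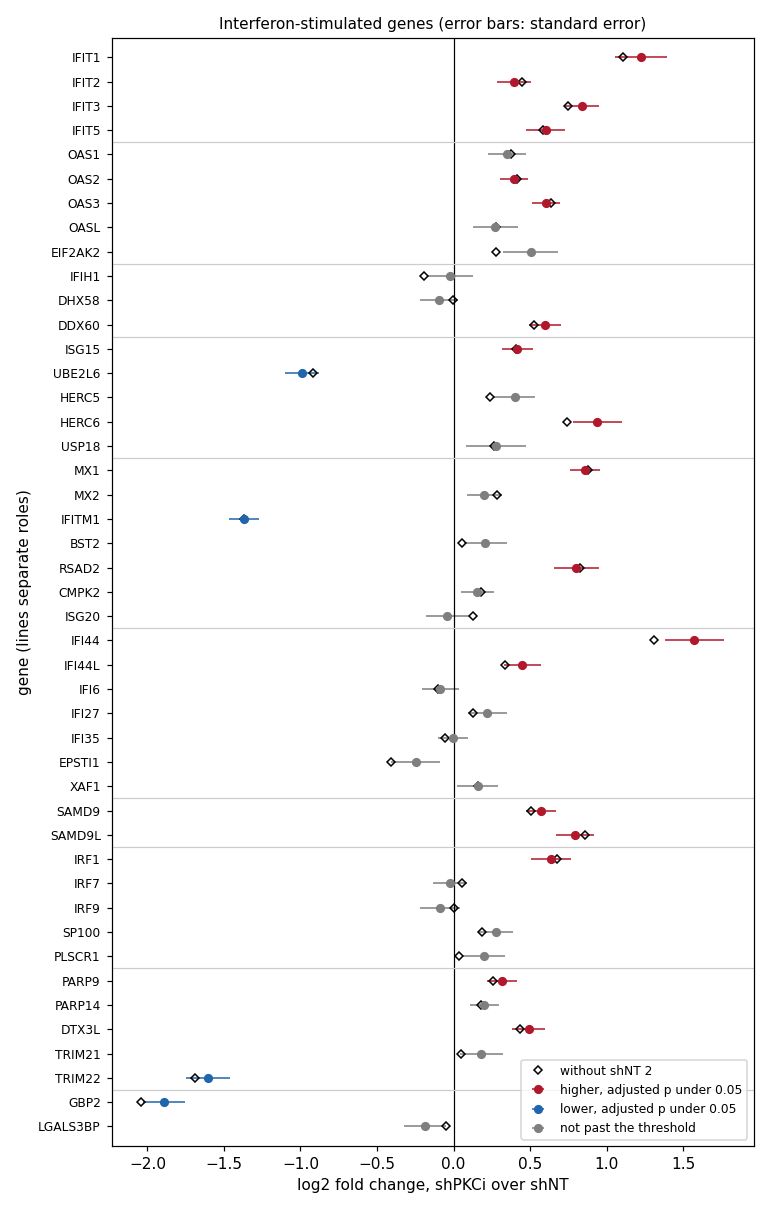
Log2 fold change of shPKCi over shNT (horizontal axis) for the 45 measured members (vertical axis, in role order); circles are fitted values from 3 arrays a line with their standard errors, coloured by the test, and diamonds are values without shNT replicate 2. IFI44 and IFIT1 lie farthest right at 1.57 and 1.23, GBP2 and TRIM22 farthest left at -1.89 and -1.60.

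Among the 5 measured transcription factors and nuclear regulators, IRF1 rose and the others did not pass. IRF1 had 5.56, 6.01 and 5.87 in shPKCi, against 5.23, 5.27 and 5.04 in shNT, and was 1.55-fold higher (log2 fold change 0.64, SE 0.13, adjusted p = 0.00859). IRF9, the DNA-binding subunit of ISGF3, had a log2 ratio of -0.09 (SE 0.13, adjusted p = 0.714). IRF7, which amplifies type I interferon production, had -0.02 (SE 0.11, adjusted p = 0.923). Those of SP100, a nuclear body protein, and PLSCR1, a scramblase also found in the nucleus, were 0.28 and 0.20 (adjusted p = 0.114 and 0.418).

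PARP9 and DTX3L form a complex that adds ubiquitin and ADP-ribose and are known to enhance the interferon response. DTX3L had 8.10, 8.02 and 7.85 in shPKCi, against 7.56, 7.39 and 7.56 in shNT, and was 1.41-fold higher (adjusted p = 0.011); the adjusted p was 0.0553 and 0.0529 without shPKCi replicate 1 or 2. PARP9 was 1.25-fold higher at an adjusted p of 0.0495. It passed in only 1 of the 6 fits that leave out an array, the one without shNT replicate 1; the adjusted p was 0.0634 without shNT replicate 2 and 0.112 to 0.153 in the other 4. PARP14, a mono-ADP-ribosyltransferase, had a log2 ratio of 0.20 (adjusted p = 0.188). TRIM21, an antibody receptor and ubiquitin ligase, had 0.18 (adjusted p = 0.46). TRIM22, a ubiquitin ligase with antiviral activity, went the other way, with 6.19, 5.80 and 6.29 in shPKCi, against 7.86, 7.52 and 7.70 in shNT. TRIM22 was 3.04-fold lower (log2 fold change -1.60, SE 0.15, adjusted p = 9.92e-05).

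GBP2, a guanylate-binding GTPase that responds mainly to interferon-gamma, fell the most of all members. It had 5.79, 5.68 and 5.83 in shPKCi, against 7.88, 7.35 and 7.74 in shNT, and was 3.71-fold lower (log2 fold change -1.89, SE 0.14, adjusted p = 2.77e-05). A second probe set of GBP2 had 4.86, 4.62 and 5.02 in shPKCi, against 6.25, 6.40 and 6.95 in shNT, a log2 ratio of -1.70 (adjusted p = 0.00041 over all probe sets). Both probe sets separated the lines without overlap. LGALS3BP, a secreted galectin-binding glycoprotein, had a log2 ratio of -0.18 (adjusted p = 0.434).

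**Figure D3:**
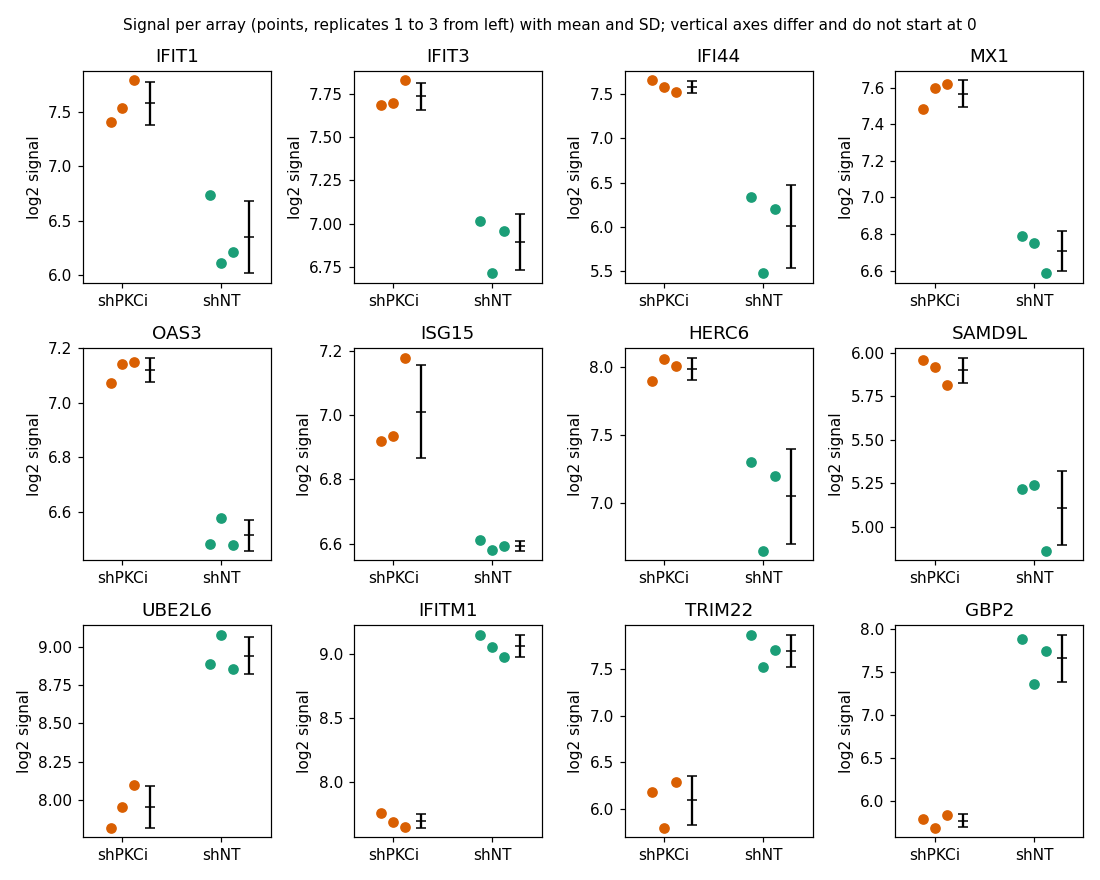
Log2 signal per array for 12 members (vertical axes differ by gene and do not start at 0), with shPKCi left of shNT in each panel and the mean and SD of 3 arrays beside the points. The lines do not overlap in any panel; the 8 genes of the upper panels are higher in shPKCi and UBE2L6, IFITM1, TRIM22 and GBP2 are lower.

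The genes upstream of the response were taken by role, and the interferon genes themselves showed no call. Of 16 measured interferon genes, 0 passed in limma at the adjusted threshold and 2 had an unadjusted p under 0.05, 1 in each direction. Over all 18404 genes, 18.5% passed and 5473 had an unadjusted p under 0.05. Among the interferon genes, 1 had a mean log2 signal above the median of all genes. IFNB1, an early type I interferon of infected epithelium, averaged 3.07 ± 0.12 in shPKCi and 2.90 ± 0.23 in shNT (SD, n = 3 each; limma adjusted p = 0.473). IFNL1, a type III interferon, had a log2 ratio of -0.21 (adjusted p = 0.256). IFNA10, chosen after its value was seen, passed when shNT replicate 2 was left out (adjusted p = 0.0407). No detection call was used here, so signals this dim cannot be told from background.

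Of 9 measured receptor and JAK kinase genes, 1 fell and none rose in limma, and 3 were lower and 0 higher at an unadjusted p under 0.05. IFNGR2, the second chain of the interferon-gamma receptor, had 8.88, 9.02 and 9.07 in shPKCi, against 9.56, 9.59 and 9.55 in shNT, and was 1.49-fold lower (adjusted p = 0.00271). Its partner IFNGR1 had a log2 ratio of 0.00 (adjusted p = 0.992). The type I receptor genes IFNAR1 and IFNAR2 had 0.01 and -0.39 (adjusted p = 0.974 and 0.109). Without shNT replicate 2, IFNAR2 fell by 0.57 (adjusted p = 0.00575) and IL10RB, the shared chain of the type III receptor named after its value was seen, by 0.40 (adjusted p = 0.0154). JAK1, JAK2 and TYK2 had log2 fold changes of -0.18, -0.04 and -0.06 and did not pass.

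Genes that sense foreign nucleic acid and pass the signal on held 5 that rose and 2 that fell of 20 measured. The rises made up 25%, against 9.55% of all genes, and the falls 10%, close to the 8.95% of all genes. RIGI, the sensor of viral RNA ends, had 8.96, 8.87 and 8.73 in shPKCi, against 8.12, 7.27 and 7.88 in shNT, and was 2.14-fold higher (adjusted p = 0.0035). CGAS, the cytosolic DNA sensor, had 8.52, 8.31 and 8.33 in shPKCi, against 7.57, 7.15 and 7.50 in shNT, and was 1.97-fold higher (adjusted p = 0.000809). In both, shNT replicate 2 was the lowest array, and both passed without it, with log2 fold changes of 0.85 each. STING1, which relays the cGAS signal, had 7.11, 7.15 and 7.02 in shPKCi, against 7.67, 7.74 and 7.65 in shNT, and was 1.51-fold lower (adjusted p = 0.00193). TLR3, the endosomal receptor of double-stranded RNA, had 4.90, 4.65 and 5.23 in shPKCi, against 6.05, 5.92 and 6.19 in shNT, and was 2.18-fold lower (adjusted p = 0.000805). RIGI and CGAS were thus higher in shPKCi while STING1 and TLR3 were lower, and 13 of the 20 measured genes did not pass. The adaptor MYD88 rose by 0.52 on the log2 scale, the helicase-like sensor gene ZNFX1 by 0.44 and the adaptor TRAF3 by 0.37. ZNFX1 did not pass without shPKCi replicate 1 or 2 (adjusted p = 0.0553 and 0.0651), nor TRAF3 without any single shPKCi array or shNT replicate 3 (0.0538 to 0.0797). MAVS, the adaptor of RIG-I, IRF3, the factor that induces IFNB1, and IFI16, a nuclear DNA sensor, had log2 fold changes between -0.01 and 0.00.

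Of 14 measured genes for inhibitors of the pathway, 1 (7.14%) fell and 0 rose in limma, against 8.95% and 9.55% of all genes. An unadjusted p under 0.05 was met by 4 lower and 2 higher genes, against 2709 and 2764 of all 18404 genes. SOCS1 and SOCS3, the feedback inhibitors of JAK kinases, had log2 fold changes of -0.08 and -0.10 (adjusted p = 0.755 and 0.531). PIAS3, an inhibitor of STAT3, fell by 0.40 (adjusted p = 0.0177), with an adjusted p of 0.0711 and 0.0742 without shPKCi replicate 1 or 3.

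**Figure D4:**
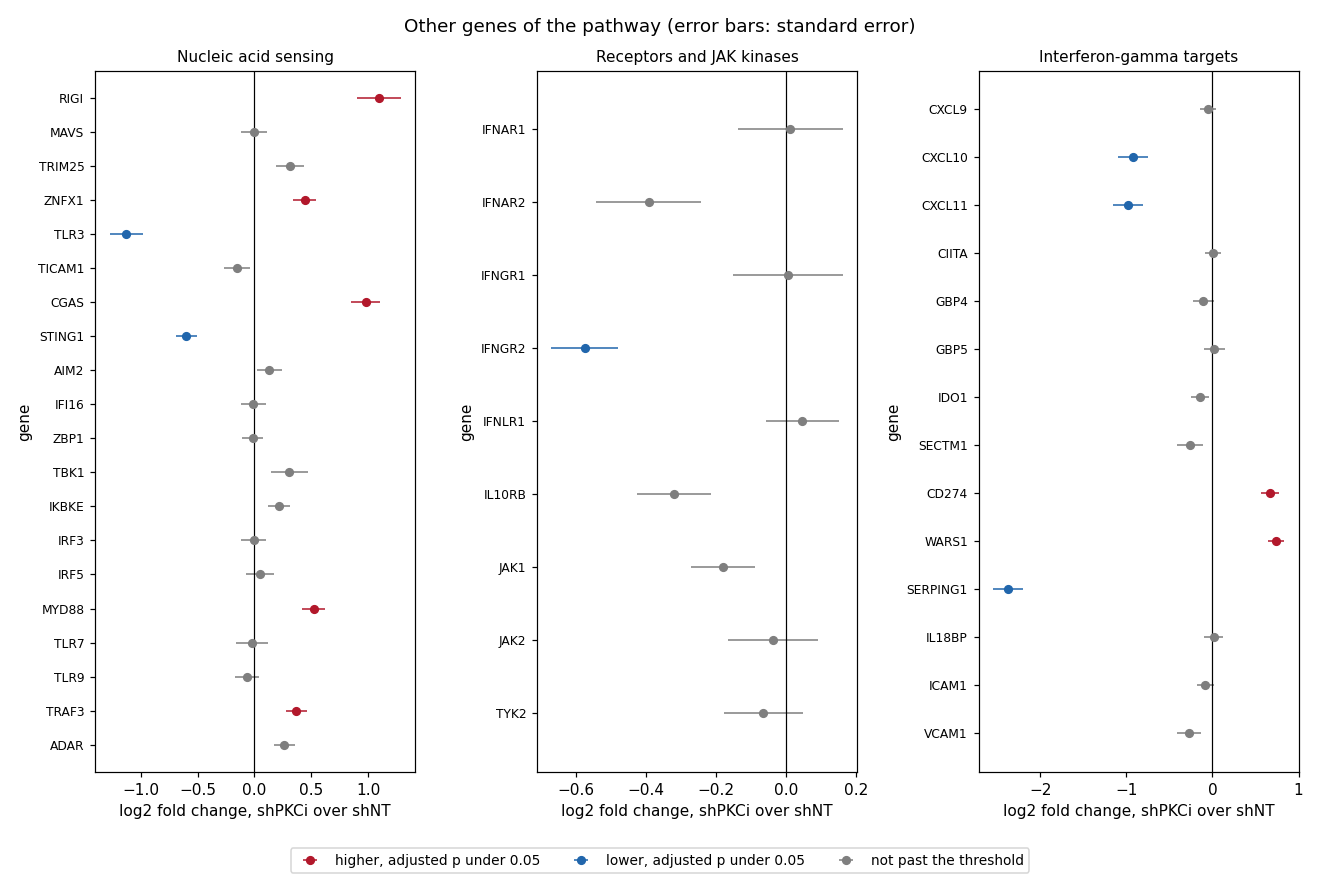
Log2 fold change of shPKCi over shNT (horizontal axes) with standard error, from 3 arrays a line, for measured genes of nucleic acid sensing, of receptors with JAK kinases, and of interferon-gamma targets (vertical axes). RIGI at 1.10 and CGAS at 0.98 stand right of 0, and TLR3 at -1.13, CXCL10 at -0.92, CXCL11 at -0.98 and SERPING1 at -2.37 left of it.

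Targets best known from interferon-gamma included several that fell. Of 14 measured, 2 rose (14.3%) and 3 fell (21.4%), against 9.55% and 8.95% of all genes. CXCL10 and CXCL11, chemokines that attract T cells, had 6.20, 6.37 and 6.38, and 6.54, 6.53 and 6.59 in shPKCi, against 7.61, 6.86 and 7.25, and 7.72, 7.08 and 7.81 in shNT. CXCL10 was 1.90-fold lower (adjusted p = 0.0048) and CXCL11 1.98-fold lower (adjusted p = 0.00363). SERPING1, the C1 inhibitor of complement, had 5.99, 6.42 and 5.92 in shPKCi, against 8.53, 8.15 and 8.76 in shNT, and was 5.17-fold lower (adjusted p = 3.08e-05). CD274, which encodes the checkpoint ligand PD-L1, was 1.59-fold higher (adjusted p = 0.00188), and WARS1, a tryptophanyl-tRNA synthetase, 1.67-fold higher (adjusted p = 0.00061). CXCL9 had a log2 ratio of -0.05 (adjusted p = 0.788). Its mean log2 signals of 3.17 in shPKCi and 3.22 in shNT were too dim to be told from background.

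A second set of 36 measured interferon-stimulated genes, which are not among the 47, held 5 that rose (13.9%) and 6 that fell (16.7%). Of all genes, 9.55% rose and 8.95% fell. The median log2 fold change was -0.10 in the set and -0.02 over all genes. PNPT1, a mitochondrial polynucleotide phosphorylase, had 10.47, 10.50 and 10.38 in shPKCi, against 9.58, 9.07 and 9.51 in shNT, and was 2.08-fold higher (adjusted p = 0.000764). ZC3HAV1, the antiviral zinc finger protein ZAP, was 1.74-fold higher (adjusted p = 0.00062). APOL1, an apolipoprotein with trypanolytic activity, had 7.94, 7.70 and 8.05 in shPKCi, against 9.85, 9.63 and 9.73 in shNT, and was 3.58-fold lower (adjusted p = 1.64e-05). TNFSF10, the death ligand TRAIL, was 1.94-fold lower (adjusted p = 0.000126). IFITM2, next to IFITM1 in the genome, was 1.86-fold lower (adjusted p = 0.00104), and IFITM3, named after its value was seen, 1.43-fold lower (adjusted p = 0.00577). IFITM1, IFITM2 and IFITM3 were therefore all lower in shPKCi, and they are close enough in sequence to bind each other's probes.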

How the data were processed

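The authors deposited a linear intensity for each of 32321 probe sets, from 1 array per sample. Per the submitters' processing notes they used RMA, a background correction, quantile normalization and probe summary. No version or build was stated, and the linear scale was inferred from the deposited intensities. Intensities were transformed to log2. Probe sets with exactly 1 symbol in the platform annotation (19158) were kept, and per gene the one of highest mean, which gave 18404 genes, with no filter on dim signal. Lines were compared with limma 3.58.1 (lmFit, eBayes) in R 4.3.3 over all 6 arrays, adjusted by Benjamini-Hochberg over all genes at 0.05, and the fit was tested on simulated data. Fold changes are from means of log2 values; array signal compresses them at both ends, and 3 arrays a line limit the precision. The members, lists and tests were chosen with earlier results of these data known. All members could be named. Over the other lists together 20 genes were fixed by role, and up to 5 further genes per list were taken by smallest adjusted p under 0.05. Same-numbered arrays of the lines deviated together with correlations of 0.12, -0.06 and -0.18, so the numbers were not taken as pairs. The other settings tried were the replicate number as a block, the removal of single arrays, median centring, cyclic loess, 2 signal filters, the mean of probe sets, trended robust variance, array weights and treat against a fold of 1.2.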

Additional observations from a re-analysis of the deposited data

How the results depend on the processing

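All 18 rises and 4 falls kept their direction in every alternative that tested them. Treat was counted but not followed gene by gene. In the other alternatives the 4 falls and 12 of the rises passed the threshold wherever they were tested. Both signal filters left out RSAD2, and the filter at the median also left out IFIT5, SAMD9L and IRF1. Across the same alternatives IFIT2, OAS2, ISG15, IFI44L, PARP9 and DTX3L lost their call in at least 1 fit. OAS1, EIF2AK2 and HERC5 passed as rises in at least 1 fit. EPSTI1 passed only with array weights, as a fall (limma adjusted p = 0.0425). With the replicate block 17 members rose and 4 fell, against 1537 and 1441 of all genes, and PARP9 and, outside the list, TRAF3 and DDX60L did not pass (adjusted p = 0.0947, 0.0527 and 0.0588). Without 1 array, 12 to 17 members rose and 4 fell. Over all genes, those fits called 997 to 1935 higher and 1048 to 1959 lower, with fewer than the full fit by over 1.5-fold without shPKCi replicate 1 (1072 and 1057), shPKCi replicate 2 (997 and 1048) or, for rises, shPKCi replicate 3 (1165), and 7 to 14 of the other pathway genes higher; the low counts of 7 came without shPKCi replicate 1 or 2, and 12 rose with all arrays. With each array centred on its median the members' median log2 fold change was 0.33, against 0.28. The median of all genes moved as well, to 0.04 from -0.02. In that fit 2170 of all genes were called higher and 1321 lower, against 1758 and 1648. Array weights called 23 of the other pathway genes lower, against 13. Asking by treat for a fold above 1.2 left 8 members higher and 4 lower, 503 of all genes higher and 599 lower, and 6 of the other pathway genes higher. Causes of these moves were not tested. Of the members, 29 lay above the median signal and 43 above its lower quartile.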

Other observations

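The response element letters were also looked up outside the 47 genes. Of 561 other tested genes with the letters in a window, 59 (10.5%) were called higher in shPKCi and 50 (8.91%) lower, with a median log2 fold change of 0.00. Of 13633 other tested genes without them, 10.1% were higher and 9.39% lower, with a median of -0.02. Among the 59 genes with the letters that rose, the 3 with the smallest adjusted p were IL24, a cytokine gene of the IL10 family, by 1.68 on the log2 scale, TXNRD1, which encodes thioredoxin reductase, by 1.60, and POLR1B, which encodes a subunit of RNA polymerase I, by 1.19. Among the 50 with the letters that fell they were the complement factor gene CFB, by a log2 fold change of -2.61, the smooth muscle actin gene ACTA2, by -2.15, and TNFSF10, by -0.95. These genes were named after their values were seen.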
